A study of Mus musculus with 9 samples.

Results

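The mouse mitochondrial genome encodes 13 messenger RNAs, 2 ribosomal RNAs and 22 transfer RNAs, all with symbols that start with mt-, and RNA from these genes was followed in sorted crypt epithelial cells after activation of natural killer T (NKT) cells. The deposited count table covered 29288 genes, and the genes were chosen as all rows whose Ensembl identifier maps to an mt- symbol. This gave 18 of the 37 annotated mitochondrial genes: all 13 messenger RNA genes, both ribosomal RNA genes and the 3 transfer RNA genes mt-Tn, mt-Tc and mt-Tp. All 18 passed the filter on low counts. The other 19 transfer RNA genes were not analysed here.

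All 9 mice were wild-type C57BL/6J females. The control group (3 mice) was injected intraperitoneally with PBS and sampled at 18 h. The 18h-αGal group (3 mice) was given 2 µg of α-galactosylceramide (αGalCer, abbreviated αGal), a glycolipid that CD1d presents to NKT cells, and sampled at 18 h. The 72h-αGal group (3 mice) received the same dose and was sampled at 72 h, for which no time-matched PBS group was used. Crypt cells of the proximal small intestine were sorted as live EpCAM+ CD45- CD31- Ter119- intestinal epithelial cells (IECs), with 1 library per mouse. The labels gave the sex but not the age of each mouse, and no library batch.

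Mitochondrial DNA is transcribed from both strands into long precursors that cover many genes. The transfer RNAs lie between the other genes, and their excision by ribonuclease P (Prorp, Trmt10c and Hsd17b10) at one end and Elac2 at the other releases the messenger and ribosomal RNAs. The messenger RNAs encode core subunits of the respiratory chain, which IECs use for the energy cost of absorption and renewal, while every protein that copies, cuts, stabilises and translates mitochondrial RNA is made from nuclear genes. The amount of a mitochondrial RNA therefore depends on mitochondrial DNA copies, on transcription and on turnover, none of which was measured directly. In bulk libraries, fewer cells of a type and less RNA per cell cannot be told apart.

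Part of the mitochondrial genome has a nearly identical copy in the nucleus, which decides what a read count can say about several of these genes. In GRCm39, the minus strand of chr1:24650616-24655265 (4650 bases) matched chrM:6394-11042 (4649 bases) with 4648 identical bases. The pair differed by 1 substitution, T9461C (the mitochondrial base, its chrM position, then the chromosome 1 base), which lies in mt-Nd3, and by 1 inserted base in the chromosome 1 copy next to chrM position 9820, in the transfer RNA gene mt-Tr. The 2 sites are shown because they are the places where a read can be told apart, with the differing base in capitals and both strands written in the direction of the mitochondrial gene.

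Mitochondrial copy, chrM:9441-9481, plus strand: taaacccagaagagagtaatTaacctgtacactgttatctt

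Chromosome 1 copy, chr1:24652178-24652218, minus strand: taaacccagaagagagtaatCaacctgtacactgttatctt

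Mitochondrial copy, chrM:9801-9840, plus strand: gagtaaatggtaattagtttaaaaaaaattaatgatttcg

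Chromosome 1 copy, chr1:24651818-24651858, minus strand: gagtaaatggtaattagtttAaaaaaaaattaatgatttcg

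The inserted base extends a run of A, so its place within the run is 1 of several that give the same sequence. Over the whole mitochondrial genome, 4788 of 16200 words of 100 bases, the length of the reads, had an exact nuclear copy, 4359 of them on chromosome 1 and 451 on chromosome 2. The copy covered the genes unevenly. For mt-Co2, mt-Atp8, mt-Atp6, mt-Co3 and mt-Nd4l, 100% of the 100-base words inside the gene occurred in the nucleus too, and for mt-Nd3 the share was 98.8%. It was 60.8% for mt-Nd4, 30.8% for mt-Co1, 3.19% for mt-Nd2 and 1.21% for mt-Rnr2, and no such word was found for mt-Nd1, mt-Nd5, mt-Nd6, mt-Cytb or mt-Rnr1. How the counting treated reads that match 2 places was not stated, so the counts of the first 6 genes may hold only a small part of their reads.

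Neighbouring genes also share bases. The messenger RNA of mt-Atp8 and mt-Atp6 is a single molecule whose reading frames overlap over 43 bases, shown with the start codon of mt-Atp6 and the stop codon of mt-Atp8 in capitals, and a read across this stretch belongs to both genes.

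mt-Atp8 and mt-Atp6 overlap, chrM:7927-7969, plus strand: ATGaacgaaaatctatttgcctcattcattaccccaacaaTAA

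Among the transfer RNAs, mt-Tp (proline) had by far the most counts and is shown as the representative of this class.

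mt-Tp, chrM:15356-15422, minus strand: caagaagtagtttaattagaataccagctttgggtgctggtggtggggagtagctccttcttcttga

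With strand ignored, a 100-base window touched mt-Tp alone at 67 positions, mt-Tn at 6 and mt-Tc at 1, whereas none of the 19 transfer RNA genes without values had such a window. With strand taken into account, 9 of those 19 had none. The library kit marks strand, but the strand setting of the counting was not stated, so RNA from the opposite strand of any of these genes cannot be separated from the gene itself.

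Total counts per library ranged from 8887861 in control replicate 3 to 32722293 in control replicate 1. Epithelial markers were high in each library (the 7 genes together had 74690 to 115700 normalised counts, the count divided by the size factor of the library), whereas lymphocyte markers were low (5 of 8 listed genes had rows, with a sum of 33.9 to 122, and Cd3e was above 0 in 4 of 9 libraries). Of 4 erythroid genes only Alas2 had a row, at 19 to 76.9 normalised counts. Sums of the other lists in all 9 libraries were 328 to 815 normalised counts for myeloid markers, 12.6 to 57.1 for endothelial and 6.29 to 71.2 for fibroblast and smooth muscle markers.

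RNA from the mitochondrial genome made up 7.95% to 11.7% of each library. The 18 genes took 10.8%, 8.55% and 11.0% of the counts in control replicates 1, 2 and 3, a mean of 10.1% ± 1.37 (SD, n = 3). In 18h-αGal the shares were 8.73%, 7.95% and 9.35% (8.68% ± 0.701, SD, n = 3), and in 72h-αGal they were 10.3%, 11.7% and 11.1% (11.0% ± 0.663, SD, n = 3). The 18h-αGal and control libraries overlapped because of control replicate 2, and all 3 libraries of 72h-αGal lay above all 3 of 18h-αGal. Shares were not tested, since 3 mice against 3 cannot reach an exact permutation p below 0.1.

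**Figure D1:**
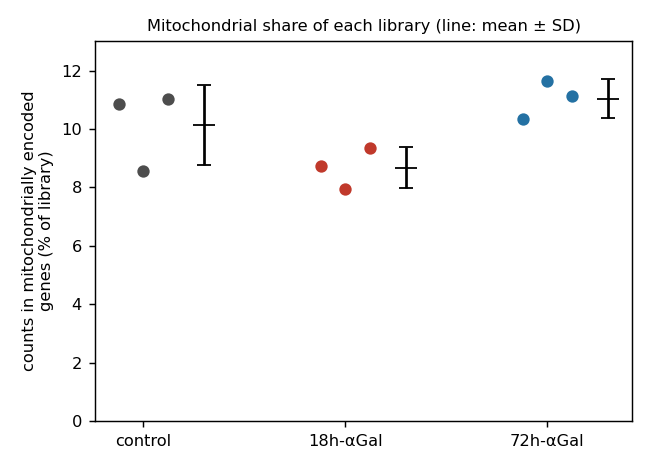
Share of each library's counts in the 18 mitochondrially encoded genes (vertical axis, percent, starting at 0) for the 3 groups; each point is 1 mouse, and the black line and bars are mean ± SD. The 72h-αGal libraries (10.3% to 11.7%) sit above the 18h-αGal libraries (7.95% to 9.35%), and 1 control library, at 8.55%, sits among the latter.

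Sums of cell type markers differed between the same libraries, and their part in the shares was not tested. The 4 crypt stem cell markers (Lgr5, Olfm4, Ascl2 and Smoc2) summed to 29080 to 54130 normalised counts in control, 7307 to 27720 in 18h-αGal and 34840 to 55330 in 72h-αGal. Olfm4 made up most of this sum, with 26290 to 47950 in control and 5859 to 23870 in 18h-αGal. Lgr5, Ascl2 and Smoc2 each overlapped between control and 18h-αGal. The 8 enterocyte markers ranged from 118500 to 323700 in control, from 166500 to 271700 in 18h-αGal and from 76270 to 156900 in 72h-αGal. For the 4 proliferation markers the ranges were 13990 to 22080, 20040 to 26610 and 21190 to 23340. Paneth cell markers overlapped between all groups (13570 to 57470 in control, 27470 to 59280 in 18h-αGal and 20790 to 50230 in 72h-αGal), as did goblet cell markers (198300 to 253400, 114200 to 330100 and 188100 to 359400). Enteroendocrine markers were at 4938 to 5597 in control, 7046 to 9813 in 18h-αGal and 2069 to 2500 in 72h-αGal, and tuft cell markers at 2047 to 3720, 3479 to 6441 and 2000 to 3416.

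Nearly all of these counts came from few genes. Ranked by their level over all libraries, mt-Co1, mt-Nd1, mt-Nd5, mt-Cytb, mt-Nd2, mt-Nd4 and mt-Nd6 held 99.7% to 99.8% of the mitochondrial counts in each library. mt-Co1, the catalytic subunit of complex IV, was the most abundant gene of the library in all 9 mice and took between 35.1% and 39.7% of the mitochondrial counts. mt-Nd1, a membrane subunit of complex I, was second in all 9, and mt-Nd6, the complex I subunit made from the opposite strand to the other messenger RNAs, ranked between 17 and 30.

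Levels were compared between genes per length, as normalised counts per kb of positions at which a 100-base window touches only that gene and has no nuclear copy. On this scale the medians over the 9 libraries were 728850 for mt-Co1, 407810 for mt-Nd1, 291990 for mt-Nd4, 237820 for mt-Cytb, 189970 for mt-Nd2, 159270 for mt-Nd5 and 115090 for mt-Nd6. The range of mt-Co1 on this scale (560620 to 923100) did not overlap that of mt-Nd1 (304120 to 455730). From there each gene overlapped its neighbour in the order, mt-Nd1 with mt-Nd4 (234330 to 371450), mt-Nd4 with mt-Cytb (167640 to 279760), mt-Cytb with mt-Nd2 (151030 to 211590), mt-Nd2 with mt-Nd5 (104550 to 185030) and mt-Nd5 with mt-Nd6 (80454 to 156710). mt-Tp, at a median of 18891, was below all of these. This scale takes reads that match 2 places as not counted and ignores strand, and neither setting was stated. With strand taken into account, mt-Tp has 166 such positions in place of 67, and mt-Nd6 has 519 in place of 406. Per kb of whole gene, mt-Co1 (363220 to 598070) did overlap mt-Nd1 (272020 to 407640). The median of mt-Nd4 was then 106580, below those of mt-Cytb (218280), mt-Nd2 (165990) and mt-Nd5 (149410).

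The 6 other messenger RNA genes were those with nuclear copies of at least 98.8% of their words, and their normalised counts were lower by orders of magnitude. Per kb of gene, the medians of normalised counts were 1545 for mt-Co2 and 758 for mt-Co3, the other core subunits of complex IV, 340 for mt-Atp6 and 253 for mt-Atp8, the membrane subunits of ATP synthase, and 529 for mt-Nd3 and 446 for mt-Nd4l, small membrane subunits of complex I. By the same measure mt-Co1 had 472220 and mt-Nd6, the lowest of the abundant 7, had 90035. The ribosomal RNA genes, which the library kit depletes, were at 112 (mt-Rnr1) and 294 (mt-Rnr2) normalised counts per kb.

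**Figure D2:**
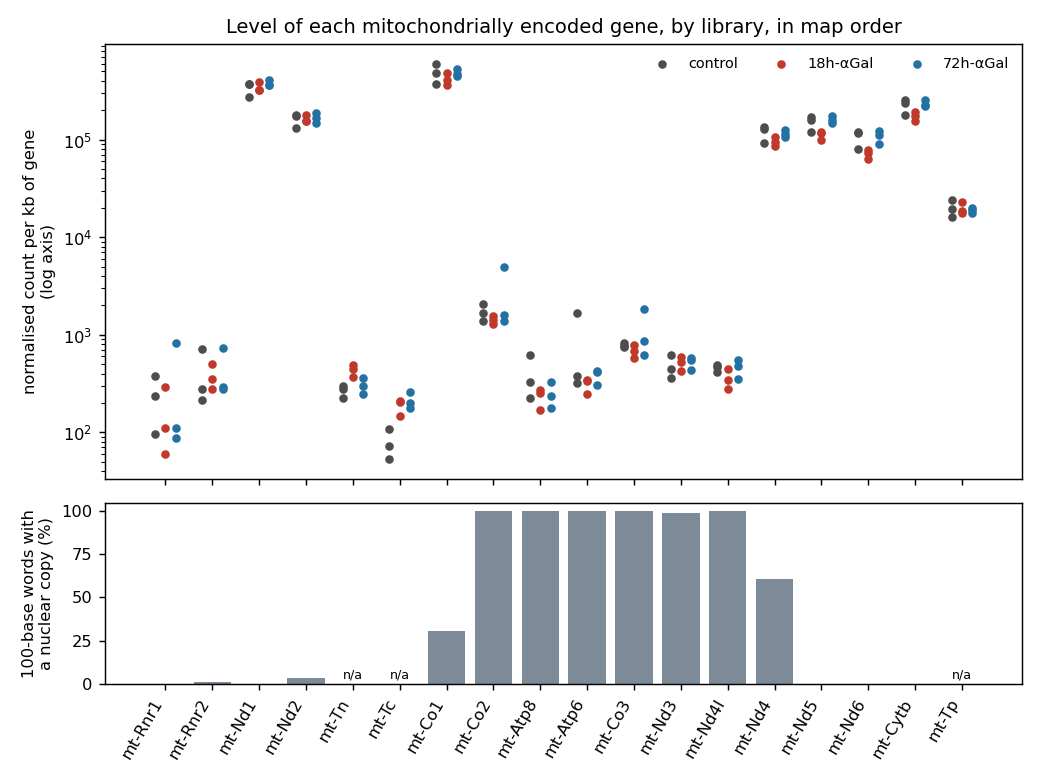
Upper panel, normalised count per kb of gene (log axis) in each of the 9 libraries, coloured by group, for the 18 genes in map order; lower panel, percent of 100-base words inside the gene with an exact nuclear copy (n/a where the gene is shorter than 100 bases). The 6 messenger RNA genes from mt-Co2 to mt-Nd4l, with 98.8% or more of their words copied, reach at most 4917 per kb in any library, and none of the abundant 7 is below 62937.

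Annotated pseudogenes on the chromosome 1 copy also had counts. Gm28661, which lies over the part equal to mt-Co2, had a median of 490 normalised counts over the libraries, Gm28437 (mt-Co3) 338, Atp6-ps (mt-Atp6) 275 and Gm28439 (mt-Nd4) 252. In these libraries reads of such identity cannot be assigned to the nucleus or to the mitochondrion.

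Counts in the copied stretch were also where single libraries stood apart. mt-Atp6 had 1144 normalised counts in control replicate 2 and 167 to 289 in the other 8 libraries. mt-Co2 had 3364 in 72h-αGal replicate 2 and 888 to 1405 elsewhere. mt-Co3 had 1426 in 72h-αGal replicate 1 and 457 to 683 elsewhere. Outside that stretch, mt-Rnr1 had 792 normalised counts in 72h-αGal replicate 3, against 56.7 to 359 elsewhere. Pseudogenes of the copied stretch showed such jumps too. Gm28439 had 8086 raw counts in control replicate 2 and 137 to 509 in the other libraries, and Gm28437 had 8738 in control replicate 1, 2348 in 18h-αGal replicate 2 and 146 to 446 in the other 7. Control replicate 2 was high for both mt-Atp6 and Gm28439, and 72h-αGal replicate 2 for mt-Co2 as well as for Gm28661 (821 normalised counts, 1.68 times its median). Gene and matching pseudogene did not always go together. Atp6-ps had 193 raw counts in control replicate 2, within its range of 140 to 527 over all libraries. mt-Co3 and Gm28437 stood apart in different libraries.

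The next question was whether single genes changed after αGalCer. Genes were tested with edgeR over the whole table of 18933 genes that passed the filter, with Benjamini-Hochberg adjusted p-values, and a gene was called at an adjusted p under 0.05. Each edgeR p-value sets a group difference against the spread between mice within groups, estimated over all 9 libraries with information shared across genes. At 18 h, 0 of the 18 mitochondrial genes were called, beside 5.96% of all genes tested (3.27% higher and 2.69% lower). Without adjustment 4 had a p under 0.05, beside 20.8% of all genes, and DESeq2 called 1 of the 18 (mt-Nd6, lower). The median log2 fold change of the 18 was -0.22, against -0.03 for all genes tested. Of the 18, 13 had a fold change below 0. Groups did not overlap for 4 of the 18 (2 higher, 2 lower), beside 23.8% of all genes (11.5% higher and 12.3% lower).

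The fold changes of the complex I genes differed in size at 18 h, and the genes were not tested against each other. mt-Nd6 had 60427, 41231 and 62673 normalised counts in control replicates 1 to 3, and 40797, 32664 and 37795 in 18h-αGal. All 3 treated mice were below all controls, narrowly so for the highest, and the log2 difference in edgeR came to -0.55 ± 0.16 (SE; adjusted p = 0.0551). mt-Nd5, a proton-pumping subunit whose gene meets mt-Nd6 end to end on the other strand, had 292199, 216245 and 313072 in control, against 216164, 178877 and 211358 in 18h-αGal. These groups were separated by less than 100 counts, at control replicate 2 and 18h-αGal replicate 1, and the log2 fold change was -0.43 ± 0.139 (SE; edgeR adjusted p = 0.0847). mt-Nd4, another proton-pumping subunit, overlapped (128308 to 186837 in control, 117868 to 146870 in 18h-αGal), with a log2 fold change of -0.32 ± 0.141 (SE; edgeR adjusted p = 0.217).

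The complex I genes nearest the ribosomal RNA genes had fold changes close to 0 at 18 h. mt-Nd1 was at 356454, 260324 and 356167 normalised counts in control and at 308097, 307327 and 370750 in 18h-αGal, a log2 fold change of 0.03 ± 0.135 (SE; 95% interval -0.24 to 0.29). mt-Nd2 was at 136985 to 186404 in control and at 159693 to 186079 in 18h-αGal, a log2 fold change of 0.02 ± 0.133 (SE; 95% interval -0.24 to 0.28). Both intervals include 0 and reach changes of the size measured for mt-Co1. Of the small subunits, mt-Nd3 had a log2 fold change of 0.14 ± 0.278 and mt-Nd4l of -0.38 ± 0.306 (SE), both on counts of 59 to 292 reads per library.

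mt-Cytb, the only mitochondrial gene of complex III, had 269715, 203957 and 293746 normalised counts in control and 200889, 176024 and 220509 in 18h-αGal. The groups overlapped through control replicate 2, and the log2 fold change was -0.35 ± 0.138 (SE; edgeR adjusted p = 0.153). For mt-Co1 of complex IV it was -0.19 ± 0.159 (SE; edgeR adjusted p = 0.55), with 740236, 575800 and 924019 normalised counts in control and 637050, 561181 and 751410 in 18h-αGal. The largest negative value, -1.37 ± 0.598 for mt-Atp6, was set by control replicate 2 and came to -0.17 without that library. Control replicate 2 was the lowest control for each of the abundant 7 genes. Without it, edgeR called mt-Nd5 (-0.57), mt-Nd6 (-0.72) and mt-Cytb (-0.49) lower at 18 h.

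The transfer RNA mt-Tp, from the same strand as mt-Nd6, had 1315, 1089 and 1619 normalised counts in control and 1185, 1247 and 1540 in 18h-αGal, a log2 fold change of -0.01 ± 0.152 (SE). mt-Tn and mt-Tc were higher in all 3 treated mice than in all controls, but on 9 to 55 and 3 to 22 raw counts, and neither was called (edgeR adjusted p = 0.587 and 0.528). The ribosomal RNA gene mt-Rnr1 ranged from 56.7 to 359 normalised counts over these 6 libraries, with a log2 fold change of -0.58 ± 1.08, and mt-Rnr2 from 341 to 1122, with -0.06 ± 0.564 (SE).

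At 72 h the abundant 7 genes overlapped control. Against control, 0 of the 18 genes were called, beside 0.0264% of all genes tested, 0 had an unadjusted p under 0.05, beside 5.94% of all genes, and DESeq2 called 0. The median log2 fold change of the 18 was 0.09, against 0.00 for all genes tested. mt-Nd6 was at 46728, 63624 and 57746 normalised counts, with a log2 fold change against control of 0.05 ± 0.159 (SE; 95% interval -0.26 to 0.36). mt-Nd5 was at 272519, 316581 and 287795, with 0.11 ± 0.139 (SE; 95% interval -0.16 to 0.38). Treatment and time of sampling cannot be told apart here. Of the 18, 1 gene had groups that did not overlap (mt-Tc, higher, on 3 to 23 raw counts), beside 12.7% of all genes (6.36% higher and 6.3% lower).

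The 2 αGalCer groups differed for mt-Nd5 and mt-Nd6. Between 72h-αGal and 18h-αGal, these 2 of the 18 genes were called, both higher at 72 h, beside 10.2% of all genes tested (4.18% higher). Without adjustment 4 of the 18 had a p under 0.05, beside 24.3% of all genes. mt-Nd5 had a log2 fold change of 0.54 ± 0.139 (SE; edgeR adjusted p = 0.0234) and mt-Nd6 of 0.60 ± 0.16 (SE; edgeR adjusted p = 0.0268). For both, all 3 libraries at 72 h were above all 3 at 18 h. mt-Cytb, with 249708, 288155 and 260610 normalised counts at 72 h, did not overlap 18h-αGal either, with a log2 fold change of 0.43 ± 0.138 (SE; edgeR adjusted p = 0.0645). Neither mt-Nd5 nor mt-Nd6 was called without 18h-αGal replicate 2 (0.46 and 0.52), without 72h-αGal replicate 2 (0.48 and 0.51) or without 72h-αGal replicate 3 (0.55 and 0.58), and mt-Nd6 was also not called without 18h-αGal replicate 3 (0.62). Groups did not overlap for 4 of the 18 genes (3 higher, 1 lower), beside 32.8% of all genes (16.6% higher and 16.3% lower). This comparison shares its 18 h libraries with the first one, so the 2 sets of values are not independent.

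**Figure D3:**
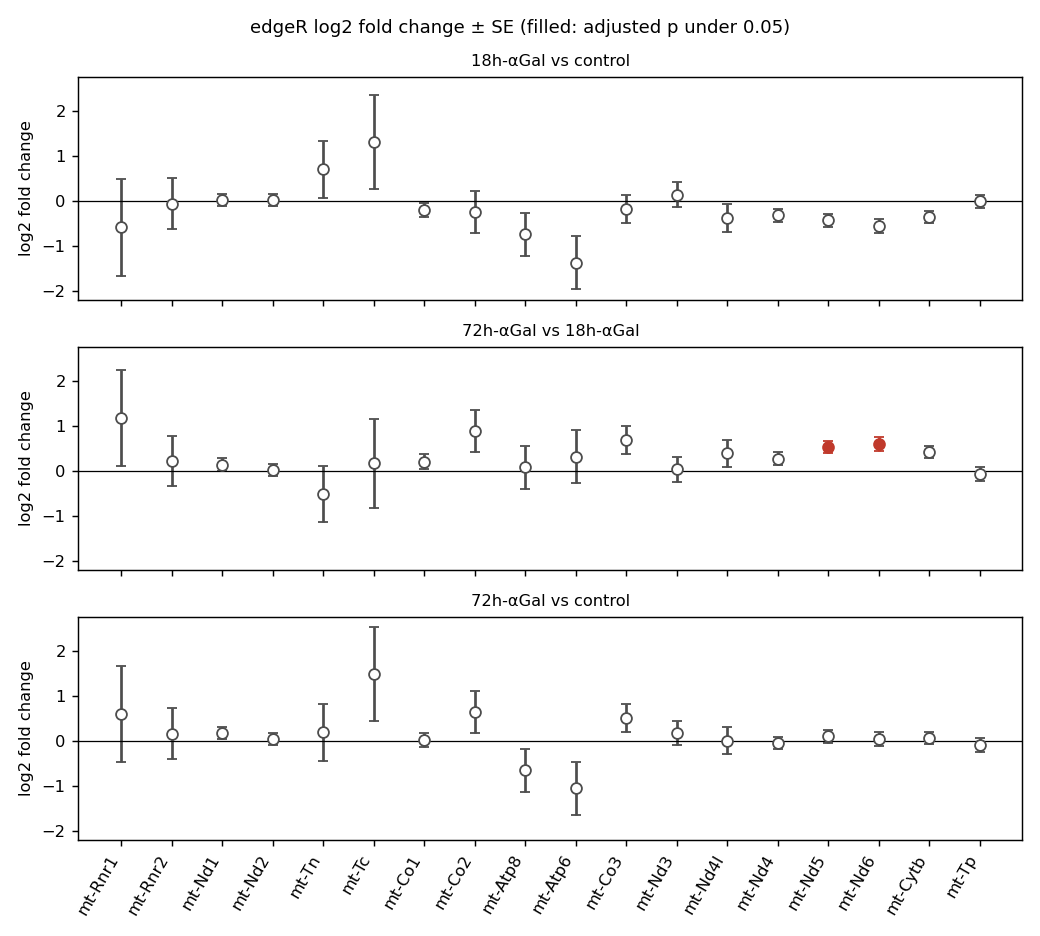
edgeR log2 fold change ± SE (vertical axis) of the 18 genes in map order for the 3 comparisons; filled red points have an adjusted p under 0.05. Only mt-Nd5 (0.54) and mt-Nd6 (0.60) are called, in the comparison of 72h-αGal with 18h-αGal, and the wide bars belong to genes with few counts or with 1 library far from the others.

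The abundant genes were also compared within each library, where differences in total mitochondrial RNA, in depth and in scaling cancel out. Relative to mt-Nd1, mt-Nd5 had a ratio of raw counts of 0.82, 0.831 and 0.879 in control, 0.702, 0.582 and 0.57 in 18h-αGal, and 0.785, 0.812 and 0.824 in 72h-αGal. All 18h-αGal libraries were below all libraries of the other 2 groups. The means were 0.843 ± 0.0315, 0.618 ± 0.0727 and 0.807 ± 0.0201 (SD, n = 3). The ratio of mt-Nd6 to mt-Nd1 was 0.17, 0.158 and 0.176 in control, 0.132, 0.106 and 0.102 in 18h-αGal, and 0.135, 0.163 and 0.165 in 72h-αGal, and the 18h-αGal libraries were again the lowest, by a narrow gap to 72h-αGal replicate 1. The ratio of mt-Cytb to mt-Nd1 was 0.757, 0.784 and 0.825 in control, 0.652, 0.573 and 0.595 in 18h-αGal, and 0.719, 0.739 and 0.747 in 72h-αGal, where all 72h-αGal libraries were also below all controls. For mt-Nd4 the ratio ranged from 0.4929 to 0.5246 in control, 0.3835 to 0.4203 in 18h-αGal and 0.4215 to 0.4476 in 72h-αGal. There too the 18h-αGal libraries were the lowest, by a narrow gap, and all 72h-αGal libraries were below all controls.

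Not all of the abundant genes had a lower ratio to mt-Nd1 at 18 h. That of mt-Nd2, which follows mt-Nd1 on the map, was 0.52 ± 0.00922 in control, 0.516 ± 0.0136 in 18h-αGal and 0.476 ± 0.029 in 72h-αGal (SD, n = 3), where control and 18h-αGal overlapped and all 72h-αGal libraries were below both. Relative to mt-Nd1, the mean log2 difference at 18 h was -0.01 for mt-Nd2, -0.21 for mt-Co1, -0.34 for mt-Nd4, -0.45 for mt-Nd5 and -0.38 for mt-Cytb in map order on the plus strand, and -0.57 for mt-Nd6 on the minus strand. mt-Tp, whose gene is also on the minus strand, did not go with mt-Nd6. The ratio of mt-Tp to mt-Nd6 was 0.0218 to 0.0264 in control, 0.029 to 0.0407 in 18h-αGal and 0.0207 to 0.0251 in 72h-αGal. Since the strand setting of the counting was not stated, counts of both genes may include RNA from the opposite strand.

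Over the 7 abundant genes there are 21 ratios of a later to an earlier gene on the map, which are not independent since each gene enters 6 of them. At 18 h, 14 of the 21 were lower in all 3 treated mice than in all controls, 0 were higher and 7 overlapped, beside 21.4% of all ratios between 2 tested genes whose groups did not overlap. Between 72h-αGal and 18h-αGal, 15 were higher, 2 lower and 4 overlapped (28.8% of all ratios did not overlap). Between 72h-αGal and control, 2 were higher, 4 lower and 15 overlapped (12.5%). The shares over all ratios count both directions and come mostly from genes with fewer counts than these 7. They are therefore not a matched background. Leaving out any 1 library of the 6 compared, the ratios lower at 18 h numbered 14 to 17. Those higher at 72 h than at 18 h numbered 15 or 16. Groups that do not overlap stay apart when a library is left out. These numbers therefore could not fall below those with all libraries, and they do not measure stability. The ratios were not tested for significance.

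**Figure D4:**
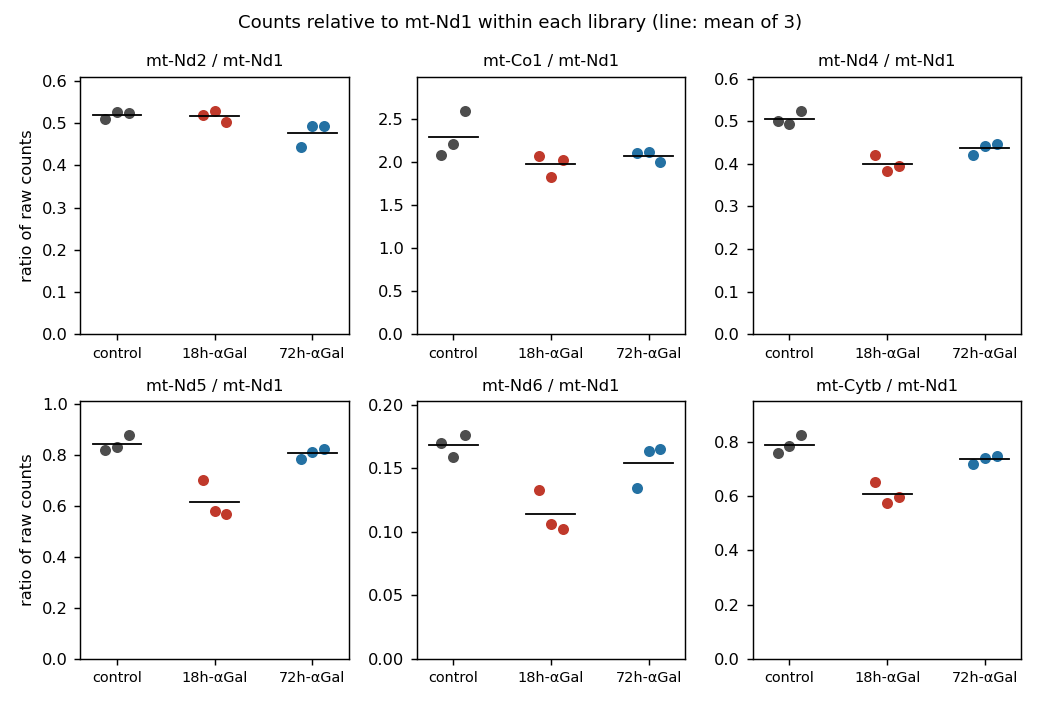
Ratio of raw counts of 6 genes to mt-Nd1 (vertical axes, starting at 0) in each library, with 3 mice per group and the group mean as a line. For mt-Nd4, mt-Nd5, mt-Nd6 and mt-Cytb the 3 libraries of 18h-αGal lie below all others, narrowly so for mt-Nd4 and mt-Nd6. For mt-Nd2, control and 18h-αGal overlap.

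Several long nuclear-retained RNAs moved in the same libraries as mt-Nd5 and mt-Nd6, and their part in these differences was not tested. Kcnq1ot1, a long antisense transcript of an imprinted locus, was at 6730 ± 1830 normalised counts in control, 2357 ± 361 in 18h-αGal (SD, n = 3; log2 fold change -1.51 ± 0.268 SE; edgeR adjusted p = 0.013) and 7057 to 13281 in 72h-αGal. Xist, the RNA of the inactive X chromosome, fell by 0.50 on the log2 scale at 18 h (edgeR adjusted p = 0.0355), and Neat1, the scaffold of paraspeckles, fell by 0.46 (edgeR adjusted p = 0.0473). They were the 3 called of 6 tested on a list of nuclear-retained and depletion-sensitive RNAs, all lower, beside 2.69% of all genes. All 3 were called higher at 72 h than at 18 h (4.18% of all genes), by 2.04, 0.81 and 0.83 on the log2 scale (edgeR adjusted p = 0.00231, 0.0019 and 0.00132). Meg3, an imprinted long RNA on the same list, went the other way and was called lower at 72 h than at 18 h, with 69 to 153.6 normalised counts at 18 h and 11.6 to 44.4 at 72 h (log2 fold change -1.92 ± 0.534 SE; edgeR adjusted p = 0.0334). Malat1, another abundant nuclear RNA, overlapped between the groups, with 101120 to 112970 in control, 86530 to 123640 in 18h-αGal and 95784 to 111800 in 72h-αGal.

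Nuclear genes that act on mitochondrial RNA were read from the same fit by list. Of 19 genes for mitochondrial DNA transcription and replication, 1 was called at 18 h, a share near the 5.96% of all genes: Mrpl12, which stands on the ribosomal list too, a ribosomal protein that also binds the mitochondrial RNA polymerase, rose from 1447 ± 113 to 2035 ± 148 normalised counts (SD, n = 3; log2 fold change 0.50 ± 0.126 SE; edgeR adjusted p = 0.0302). Polrmt, the polymerase itself, was at 1090 ± 55.6 in control and 1218 ± 23.8 in 18h-αGal (edgeR adjusted p = 0.539). Tfam, which packages mitochondrial DNA and starts transcription, was at 456 ± 107 and 507 ± 87.4 (edgeR adjusted p = 0.739).

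Among 32 tested genes for processing, stability and decay of mitochondrial RNA, 2 rose at 18 h and 0 fell, a share near the 5.96% called over all genes. Pnpt1, the exoribonuclease that degrades mitochondrial RNA together with the helicase Supv3l1, had 1037, 1049 and 944 normalised counts in control, 1650, 1836 and 1598 in 18h-αGal, and 1113, 991 and 1047 in 72h-αGal. All 3 treated mice at 18 h were above every other mouse, with a log2 fold change of 0.75 ± 0.125 against control (SE; edgeR adjusted p = 0.00285) and of -0.68 ± 0.124 from 18 h to 72 h (SE; edgeR adjusted p = 0.00355). Ptcd2, a pentatricopeptide protein that takes part in the maturation of the mt-Cytb messenger RNA, had 463, 535 and 449 in control, 783, 730 and 832 in 18h-αGal, and 576, 419 and 433 in 72h-αGal, with a log2 fold change at 18 h of 0.70 ± 0.171 (SE; edgeR adjusted p = 0.0251). Lrpprc, which stabilises most mitochondrial messenger RNAs, was at 3312 ± 201 and 3489 ± 533 in control and 18h-αGal (SD, n = 3; log2 fold change 0.08 ± 0.122 SE; edgeR adjusted p = 0.769).

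The listed genes of mitochondrial translation that passed the test at 18 h were higher, and most did not pass it. Gfm1, the elongation factor that moves the ribosome along the messenger RNA, went from 1321 ± 107 to 2421 ± 163 normalised counts (SD, n = 3; log2 fold change 0.88 ± 0.127 SE; edgeR adjusted p = 0.00136), and Tufm, the factor that delivers transfer RNAs, from 3175 ± 197 to 4576 ± 241 (log2 fold change 0.54; edgeR adjusted p = 0.012). They were the 2 called of 15 translation factors (3.27% of all genes rose), and both fell again between 18 h and 72 h. Of 77 mitochondrial ribosomal protein genes, 14 rose and 0 fell at 18 h, beside 3.27% of all genes that rose, with a median log2 fold change of 0.39 over the 77 and of -0.03 over all genes. Mrpl20 (1.35 ± 0.273 SE; edgeR adjusted p = 0.0099) and Mrps11 (1.20 ± 0.321 SE; edgeR adjusted p = 0.0387) had the largest changes, followed by Mrpl13 (1.04) and Mrpl55 (1.02). Of the 77, 20 fell between 18 h and 72 h and 0 rose, beside 6.04% of all genes that fell.

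The nuclear subunits of the respiratory chain, partners of the mitochondrial messenger RNAs' products, had median fold changes of the opposite sign to mt-Nd5, mt-Nd6 and mt-Cytb. At 18 h, 5 of 79 tested rose and 0 fell (3.27% of all genes rose), with a median log2 fold change of 0.27, and 75 of the 79 had values above 0. Uqcr10, a small subunit of complex III, had the smallest adjusted p (0.71 ± 0.122 SE; edgeR adjusted p = 0.00377), and Ndufb6 of complex I had the largest change (1.05 ± 0.284 SE; edgeR adjusted p = 0.0418). Between 18 h and 72 h, 34 of the 79 fell and 0 rose (6.04% of all genes fell), with a median of -0.44, led by Ndufs5 (-1.25), Ndufb6 (-1.07) and Ndufb1 (-1.03). In the 72h-αGal comparison with control, 0 of the genes on any of these lists were called, beside 0.0264% of all genes tested. Of the 79 respiratory chain subunits, 67 had values below 0 there and 12 above. Their median log2 fold change was -0.19, against 0.00 for all genes. In edgeR 14 of the 79 had an unadjusted p under 0.05, beside 5.94% of all genes.

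0 of 17 aminoacyl-tRNA synthetases and 0 of 8 regulators of mitochondrial biogenesis were called in any of the 3 comparisons. Of all genes tested, 5.96% were called at 18 h, 0.0264% at 72 h against control and 10.2% from 18 h to 72 h. On lists this short, 0 calls say little. At 18 h, 1 of the 17 and 2 of the 8 had an unadjusted p under 0.05 in edgeR, beside 20.8% of all genes. Ppargc1a, a coactivator of mitochondrial genes, was at 2156 ± 584, 1997 ± 637 and 1561 ± 188 normalised counts in control, 18h-αGal and 72h-αGal (SD, n = 3). Lars2, the leucine synthetase, was at 648 ± 69.7, 596 ± 87.4 and 652 ± 43.3. Counts of calls on these lists depended on single mice, as did counts over all genes tested. Against 23 genes called at 18 h with all libraries, there were 7 without control replicate 1, 10 without control replicate 2, 12, 5 and 17 without 18h-αGal replicates 1, 2 and 3, and 14 and 15 without 72h-αGal replicates 1 and 2. From 18 h to 72 h, 58 were called with all libraries, 37, 22 and 32 without 18h-αGal replicates 1, 2 and 3, and 35, 26 and 17 without 72h-αGal replicates 1, 2 and 3. Over all genes tested in each fit, calls at 18 h numbered 1128 with all libraries and 432 to 1556 without 1. The calls from 18 h to 72 h numbered 1936 with all libraries and 831 to 2593 without 1.

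**Figure D5:**
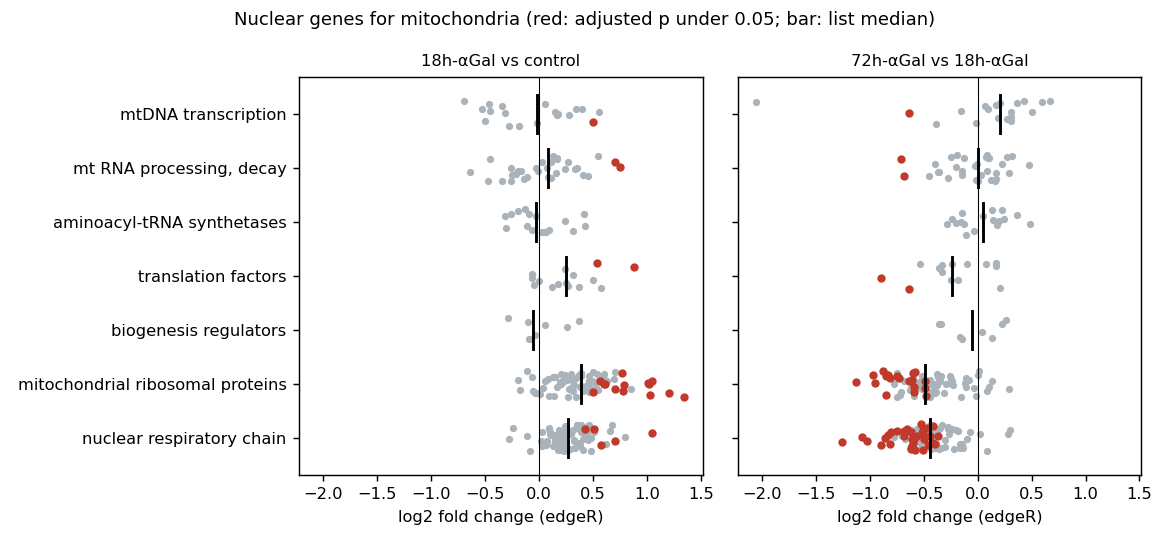
edgeR log2 fold change (horizontal axis) of each tested gene on 7 lists of nuclear genes for mitochondria, for 18h-αGal against control (left) and 72h-αGal against 18h-αGal (right); red points have an adjusted p under 0.05 and the vertical bar is the median of the list. The mitochondrial ribosomal proteins (medians 0.39 and -0.48) and respiratory chain subunits (0.27 and -0.44) lie to the right of 0 at 18 h and to the left of it from 18 h to 72 h.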

How the data were processed

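RNA was sequenced by the authors from ribosomal RNA-depleted, strand-directional NEBNext Ultra II libraries as 100 bp reads and aligned with HISAT2. The sources differ on the genome: the methods of the study name GRCm39, and the submitters' processing notes name GRCm38 (mm10) beside featureCounts (Subread) and DESeq2 1.42.0. The authors deposited raw counts and a normalised signal for each gene; dividing counts by 1 factor per library gave that signal, called normalised count here, without correction for length. The annotation release and the treatment of multi-mapped reads were not given in the sources used here. Of 29288 identifiers, 28480 matched GENCODE vM39 (GRCm39), which supplied symbols and positions.

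Counts were tested with edgeR 4.0.16 in R 4.3.3 (filterByExpr, TMM, robust quasi-likelihood fit of 3 groups over 9 libraries; standard errors from the F statistic). A floor of 3 counts per library corresponded to 1.76 to 7.13 normalised counts and covers counting error only. Replicate numbers recur between groups but mark different mice, and deviations of same-numbered libraries correlated between -0.15 and 0.115, so no pairing was used. Exact nuclear copies of 50- and 100-base words of the mitochondrial genome were searched on both strands of GRCm39, and scripts were tested on simulated data. Alternatives were DESeq2 1.42.0, RLE scaling, library totals, scaling without mitochondrial genes, no low-count filter, 2-group fits, a replicate block and leaving out each library; leave-one-out values of ratios and further fits read for the nuclear lists were added after seeing the data. The members and lists were chosen with earlier results of these data known. Any mitochondrial gene could be named, with up to 4 called genes per list and comparison by size of change, 6 fixed nuclear genes (Polrmt, Tfam, Lrpprc, Pnpt1, Ppargc1a and Lars2), the pseudogenes on the copies and the cell type markers. Malat1 was named outside this rule, after its values were seen.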

Additional observations from a re-analysis of the deposited data

Results flagged for a closer look

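The 72h-αGal and 18h-αGal groups differed for mt-Nd5 and mt-Nd6 by the edgeR test between them. With no PBS group at 72 h, time of sampling and treatment cannot be told apart in this difference. For mt-Nd5 the log2 difference was 0.54 ± 0.139 (SE; adjusted p = 0.0234) and for mt-Nd6 it was 0.60 ± 0.16 (SE; adjusted p = 0.0268), each with all 3 mice at 72 h above all 3 at 18 h. Over the 9 fits that left out 1 library, mt-Nd5 remained called in 6 and mt-Nd6 in 5. These include the fits without a control library, which is not among those compared, and both genes stayed called in each of them. With a compared library left out, mt-Nd5 stayed called only without 18h-αGal replicate 1, 18h-αGal replicate 3 or 72h-αGal replicate 1. Likewise, mt-Nd6 stayed called only without 18h-αGal replicate 1 or 72h-αGal replicate 1.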

How the results depend on the processing

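At 18 h, the 0 mitochondrial genes called became 2 with library totals as the only scaling (mt-Nd5 and mt-Nd6), 2 without the low-count filter (mt-Cytb and mt-Nd5), 1 with DESeq2 (mt-Nd6), and 0 to 3 over the fits that left out 1 library, with 3 without control replicate 2. All calls were lower, and the cause was not tested. Between 72h-αGal and 18h-αGal, the 2 genes became 1 with a replicate block, where the same-numbered libraries were fitted as if paired (mt-Nd5, adjusted p = 0.0494; mt-Nd6, adjusted p = 0.0512), and 0 to 3 over the fits without 1 library. The genes called were not always these 2. Without 72h-αGal replicate 3 only mt-Co3 was called. mt-Cytb was called too in some fits, among them library totals, no low-count filter and 2 groups only. mt-Nd5 and mt-Nd6 kept their direction in that comparison under each of the 16 alternatives, with log2 fold changes of 0.46 to 0.62 and 0.51 to 0.72. In the comparison of 72h-αGal with control no alternative called a mitochondrial gene. The genes called on the nuclear lists at 18 h (23) became 9 in a fit of the 2 groups only and 11 with the replicate block, and 5 to 28 without 1 library; from 18 h to 72 h (58) they became 37 with library totals, 31 with the block and 17 to 65 without 1 library. Over all genes tested, the 1128 calls at 18 h became 593 in the fit of 2 groups and 781 with the block. The 1936 from 18 h to 72 h became 1829 with library totals and 1371 with the block. Among the mitochondrial genes the block changed no other call. Single nuclear genes were not followed under the block.

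Values near 0 changed sign. With library totals mt-Nd2 came to -0.007 at 18 h, mt-Nd4 to 0.019 at 72 h against control and mt-Tp to 0.012 at 72 h against 18 h, and without the low-count filter mt-Tp came to 0.00 at 18 h. Leaving out 1 library, log2 fold changes at 18 h spanned -0.11 to 0.10 for mt-Nd1, -0.106 to 0.091 for mt-Nd2 and -0.13 to 0.14 for mt-Tp. At 72 h against control they spanned -0.13 to 0.20 (mt-Co1), -1.41 to 0.15 (mt-Atp6, positive only without control replicate 2), -0.181 to 0.062 (mt-Nd4), -0.028 to 0.214 (mt-Nd5), -0.11 to 0.17 (mt-Nd6), -0.060 to 0.181 (mt-Cytb), -0.069 to 0.136 (mt-Nd2) and -0.201 to 0.073 (mt-Tp). At 72 h against 18 h they spanned -0.043 to 0.118 for mt-Nd2 and -0.136 to 0.051 for mt-Tp. Without 1 library, group means of the library shares were 8.34% to 9.04% (18h-αGal), 10.7% to 11.4% (72h-αGal) and 9.70% to 10.9% (control). With 3 libraries per group such a shift is always under 1 SD, so it does not measure stability. With other sets of genes counted, the means were 8.67% to 8.69%, 11.03% to 11.05% and 10.13% to 10.16%. The genes left out there held few counts. Depth limits mt-Tn, mt-Tc and mt-Atp8, with 3 to 214 counts.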
